A study of Homo sapiens with 8 samples.

Results

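GNAS, CDC42, AAK1, JMJD6 and RUFY3 are 5 genes, of 11963 measured, whose probe sets (groups of short probes, each reading a stretch of the gene's RNA) gave different answers in cells with silenced DJ-1. They were chosen from measured values. Of 4310 genes with several probe sets, 45 had at least 1 probe set that was called and changed by at least 2-fold between knockdown and scramble cells, and in 7 of these another probe set at or above the median array level differed by under 0.25 on the log2 scale. The 5 genes belong to those 7 and hold 26 of the 22215 probe sets tested, 9 for GNAS, 4 for CDC42, 5 for AAK1, 3 for JMJD6 and 5 for RUFY3. The smallest difference at such a second probe set was 0.02 for JMJD6, 0.05 for CDC42, 0.07 for GNAS, 0.08 for AAK1 and 0.16 for RUFY3. MACROH2A1 (0.12) and PKP4 (0.14) also lay inside the limit, and the nearest genes outside it were TPM1 (0.35) and SEPTIN6 (0.52). The called probe set of MACROH2A1 was lower in knockdown by 1.19 and that of PKP4 higher by 1.29. Neither is among the 5 genes. Because knockdown minus scramble chose the genes, their values in that comparison are given as a description, with no test.

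The samples came from SH-SY5Y, a human neuroblastoma cell line long kept in culture. Knockdown clones B and G carried a stable RNAi construct against DJ-1, the protein encoded by PARK7, and clones H and M carried a stable scramble RNAi as the control. Each clone was measured on 2 arrays, numbered replicate 1 and replicate 2, which gave 8 arrays in all (written B1, B2, G1, G2, H1, H2, M1 and M2). Each clone is a single transfected line, so with 2 clones per condition the silencing and the history of a clone cannot be told apart. Whether the arrays of a clone came from separate cultures was not stated, and p-values therefore measure the spread between these arrays. The cultures were measured in bulk, so fewer cells with a transcript and less transcript per cell cannot be told apart.

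PARK7 was 10.45, 10.12, 10.10 and 10.05 log2 signal on B1, B2, G1 and G2 and 13.11, 13.14, 13.11 and 12.95 on H1, H2, M1 and M2. The difference was -2.90 (SE 0.09, limma adjusted p = 1.67e-06), and every array followed its label. Array medians lay between 8.03 and 8.08. Of 11 measured neuroblast markers 10 were at or above the median level of 8.06, with TH, the rate-limiting enzyme of catecholamine synthesis, below it at 6.02. No measured leukocyte marker (0 of 5) or epithelial marker (0 of 6) reached that level, while 5 of 10 mesenchymal markers, led by TWIST1 at 12.72, and 1 of 4 Schwann and melanocytic markers did. The summed mesenchymal signal was 12.97 to 13.32 on knockdown arrays and 13.02 to 13.49 on scramble arrays. The summed neuroblast signal was 16.39 to 16.51 on knockdown and 15.90 to 16.39 on scramble arrays, and the summed Schwann and melanocytic signal was lower on every knockdown array (9.27 to 9.41) than on any scramble array (9.44 to 9.79). No single marker of any list was called. The gap between 3' and 5' control probe sets, a measure of RNA integrity, was 0.24 to 0.46 for ACTB on knockdown arrays and 0.10 to 0.30 on scramble arrays, and 0.05 to 0.09 and 0.02 to 0.13 for GAPDH. The part of these markers and of RNA integrity in the results below was not tested.

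A gene can be read by several probe sets because its RNA is made in several forms, through alternative promoters, alternative exons or alternative ends, and a short probe set sees only the forms that contain its stretch. GNAS is a textbook case: it is an imprinted locus with several promoters that makes the stimulatory G protein alpha subunit, its extra-large form XLas, and the neurosecretory protein NESP55. CDC42 and AAK1 are likewise made in forms that differ at their ends, and one CDC42 form is enriched in brain. In the platform's names the ending _at marks a probe set designed to read one transcript or gene, _s_at one shared by several transcripts, and _x_at one with probes that may match other sequences. Where each probe set lies in its transcript was not analysed here, and the part of transcript form, of signal from introns and of cross-hybridization in the disagreements was not tested.

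Across the 26 probe sets, 8 were higher in knockdown by at least 1 on the log2 scale, which is 2-fold, and none was lower by that much. Among all probe sets 0.419% were higher and 0.819% were lower by that much. All 4 knockdown arrays lay above all 4 scramble arrays for 10 of the 26, against 6.68% of all probe sets, and below them for none, against 5.03%. These counts restate how the genes were chosen. Their one direction depends on which genes inside the limit were taken, since the limit itself admits either direction. MACROH2A1, with a lower probe set, lay inside the limit but is not one of the 5. The other 16 probe sets overlapped between conditions and differed by -0.16 to 0.27. Thus 15 of the 26 differed by under 0.25 in either direction, and the median of the 26 was 0.11.

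**Figure D1:**
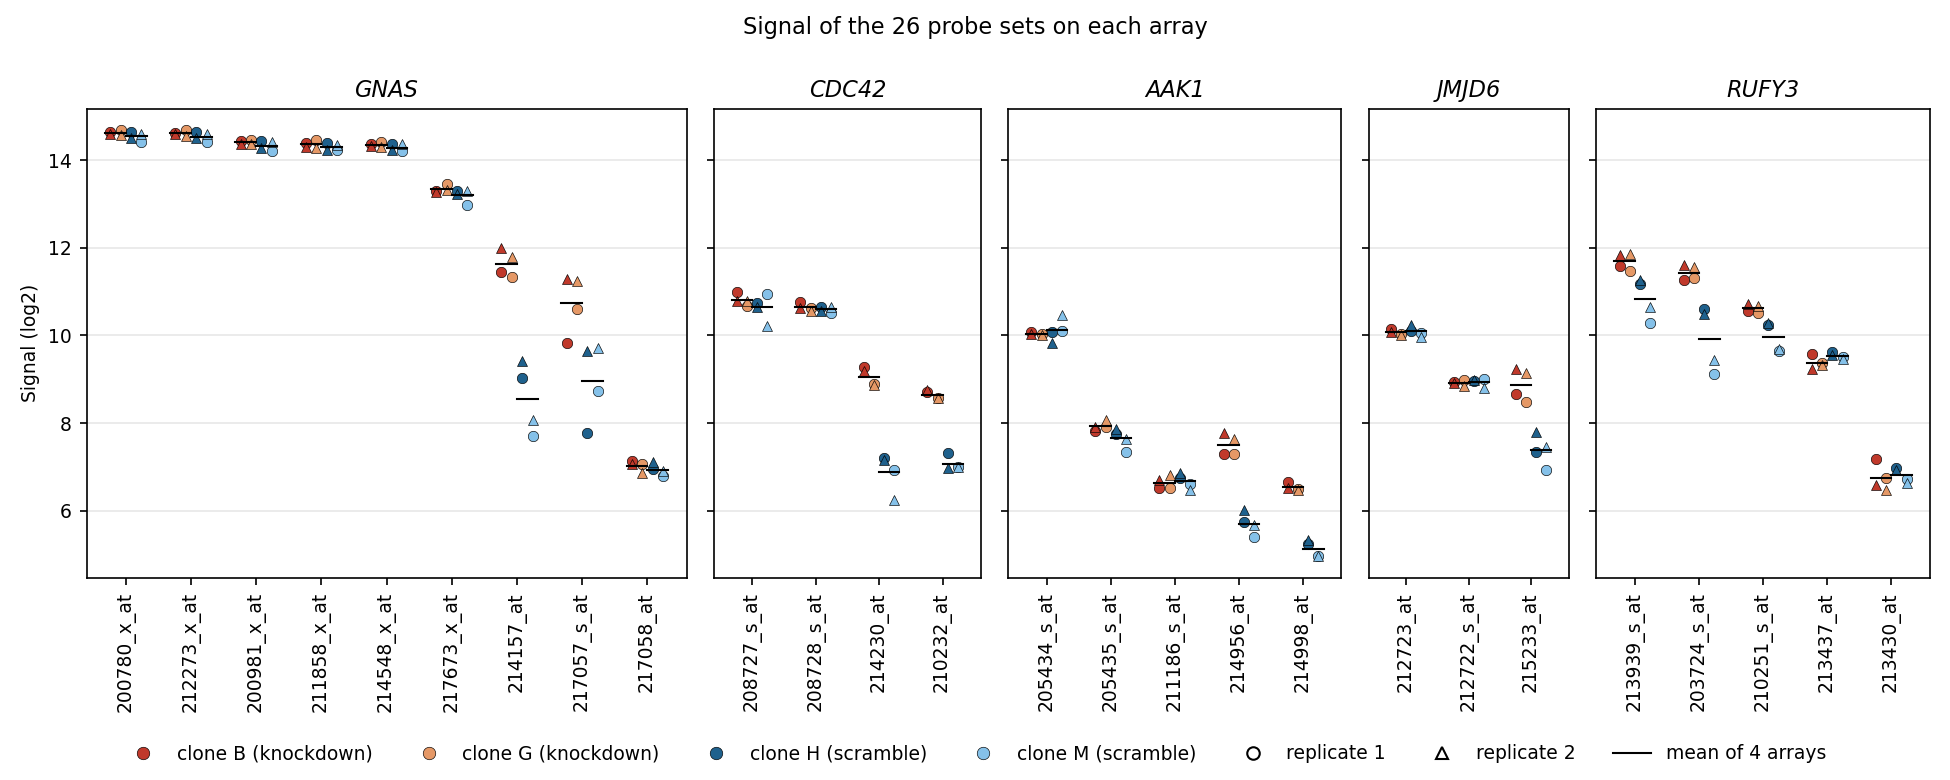
Signal (log2) of the 26 probe sets of GNAS, CDC42, AAK1, JMJD6 and RUFY3 on each of the 8 arrays, with knockdown clones B and G and scramble clones H and M; each point is 1 array. The 10 probe sets whose knockdown arrays all lie above the scramble arrays stand beside 16 whose arrays overlap, among them all 6 of the bright _x_at probe sets of GNAS.

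GNAS encodes the subunit that couples hormone and transmitter receptors to adenylyl cyclase. Its brightest probe set, 200780_x_at, read 14.65, 14.60, 14.68 and 14.58 on B1, B2, G1 and G2 and 14.65, 14.51, 14.42 and 14.61 on H1, H2, M1 and M2. The arrays of the conditions overlapped, and the difference was 0.08. The highest signal on any array was 14.88 to 14.99, so this probe set read close to the top of the scale. The other 4 _x_at probe sets with a mean over 14 (212273_x_at, 200981_x_at, 211858_x_at and 214548_x_at) differed by 0.07 or 0.08. The _x_at probe set 217673_x_at, at a mean of 13.27 and so further below the top, differed by 0.14, again with overlapping arrays.

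A different picture came from 214157_at of GNAS. It read 11.44, 11.99, 11.33 and 11.79 on B1, B2, G1 and G2 and 9.02, 9.42, 7.71 and 8.06 on H1, H2, M1 and M2. All knockdown arrays were above all scramble arrays, and clone M was the lowest. The difference was 3.09 (SE 0.34), a ratio of 8.49, with SDs of 0.30 over knockdown arrays and 0.80 over scramble arrays (n = 4 each). Clone B was higher than the scramble mean by 3.16 and clone G by 3.01. Against clone H alone the knockdown mean was higher by 2.42, and against clone M alone by 3.75.

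A further GNAS probe set, 217057_s_at, read 9.83, 11.29, 10.60 and 11.25 on B1, B2, G1 and G2 and 7.77, 9.64, 8.74 and 9.71 on H1, H2, M1 and M2. The knockdown arrays were again all higher, but by a narrow margin between B1 and M2, because in each clone replicate 2 read well above replicate 1. The difference was 1.78 (SE 0.43), a ratio of 3.42, with SDs of 0.69 and 0.91 (n = 4 each). Within replicate 1 it was 1.96 and within replicate 2 it was 1.59. The dimmest GNAS probe set, 217058_at, is listed with the same database record as 217057_s_at and differed by 0.09. It read 7.12, 7.06, 7.06 and 6.87 on B1, B2, G1 and G2 and 6.95, 7.12, 6.79 and 6.90 on H1, H2, M1 and M2, so its conditions overlapped. Whether it was above background was not analysed here.

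CDC42 is a GTPase that directs filopodia and cell polarity. Its 2 _s_at probe sets, listed with a single record, overlapped between conditions. The brightest, 208727_s_at, read 10.99, 10.79, 10.67 and 10.79 on B1, B2, G1 and G2 and 10.73, 10.64, 10.95 and 10.23 on H1, H2, M1 and M2, a difference of 0.17. The second, 208728_s_at, read 10.77, 10.63, 10.62 and 10.56 and then 10.66, 10.56, 10.52 and 10.64 in the same order, a difference of 0.05.

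Both _at probe sets of CDC42 were higher in knockdown. 214230_at read 9.27, 9.20, 8.90 and 8.86 on B1, B2, G1 and G2 and 7.21, 7.16, 6.92 and 6.24 on H1, H2, M1 and M2. No array of one condition reached the other, and M2 was the lowest. The difference was 2.17 (SE 0.20), a ratio of 4.51, with 2.35 for clone B and 1.995 for clone G. 210232_at read 8.71, 8.75, 8.57 and 8.57 and then 7.31, 6.98, 6.99 and 6.99 in the same order, a difference of 1.58 (SE 0.10) and a ratio of 2.99. Here the 4 clones were tight, with SDs of 0.09 over knockdown and 0.16 over scramble arrays, and H1 was the highest scramble array. On scramble arrays both _at probe sets read below the median level of 8.06. Whether they were above background there was not analysed here, which limits both ratios.

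AAK1 is a kinase that phosphorylates the AP-2 adaptor of clathrin-coated vesicles. Its brightest probe set, 205434_s_at, read 10.07, 10.03, 10.04 and 10.01 on B1, B2, G1 and G2 and 10.07, 9.82, 10.11 and 10.47 on H1, H2, M1 and M2, a difference of -0.08. Knockdown arrays sat inside the range of the scramble arrays. 205435_s_at, with the same record, read 7.82, 7.90, 7.90 and 8.06 and then 7.75, 7.86, 7.34 and 7.64 (0.27), and 211186_s_at read 6.52, 6.70, 6.52 and 6.82 and then 6.73, 6.86, 6.62 and 6.47 (-0.03). Both overlapped between the conditions.

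The _at probe sets of AAK1, both dim, did not overlap. 214956_at read 7.29, 7.77, 7.30 and 7.65 on B1, B2, G1 and G2 and 5.73, 6.01, 5.39 and 5.66 on H1, H2, M1 and M2, a difference of 1.81 (SE 0.15). 214998_at read 6.66, 6.51, 6.49 and 6.48 and then 5.25, 5.33, 4.95 and 4.95, a difference of 1.41 (SE 0.10). Clone H was above clone M in both. Whether these dim probe sets were above background on the scramble arrays was not analysed here, so no ratio is given for them.

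JMJD6 is a nuclear JmjC-domain enzyme that hydroxylates lysines of splicing factors. Its 2 brighter probe sets overlapped between conditions: 212723_at read 10.15, 10.07, 10.04 and 10.02 on B1, B2, G1 and G2 and 10.11, 10.23, 10.05 and 9.97 on H1, H2, M1 and M2. 212722_s_at read 8.94, 8.90, 8.99 and 8.84 and then 8.97, 8.98, 9.01 and 8.79, and both differences were -0.02. By contrast 215233_at read 8.66, 9.22, 8.49 and 9.14 and then 7.33, 7.79, 6.92 and 7.46. Its knockdown arrays were all above its scramble arrays, with a difference of 1.50 (SE 0.20) and a ratio of 2.83, and replicate 2 was above replicate 1 in every clone. Its scramble values lay below the median level, and whether they were above background was not analysed here, which limits the ratio.

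RUFY3 is an adaptor with a RUN domain that acts in neuronal polarity and lysosome positioning. It differed from the other 4 genes in that its brightest probe set was among those that were higher. That probe set, 213939_s_at, read 11.58, 11.85, 11.48 and 11.85 on B1, B2, G1 and G2 and 11.17, 11.27, 10.29 and 10.65 on H1, H2, M1 and M2, a difference of 0.85. 203724_s_at read 11.26, 11.61, 11.30 and 11.57 and then 10.61, 10.49, 9.12 and 9.44, a difference of 1.52 (SE 0.31) and a ratio of 2.87. 210251_s_at read 10.56, 10.72, 10.51 and 10.68 and then 10.24, 10.28, 9.66 and 9.70, a difference of 0.65. In all 3 the knockdown arrays were separate from the scramble arrays, and clone H lay between clone M and the knockdown clones.

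The 2 _at probe sets of RUFY3 did not follow. 213437_at read 9.57, 9.24, 9.36 and 9.32 on B1, B2, G1 and G2 and 9.61, 9.56, 9.51 and 9.45 on H1, H2, M1 and M2 (-0.16). 213430_at read 7.18, 6.57, 6.75 and 6.48 and then 6.97, 6.92, 6.73 and 6.63 (-0.07). The knockdown arrays overlapped the scramble arrays in both, and in 213437_at 3 of the 4 knockdown arrays were below every scramble array.

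**Figure D2:**
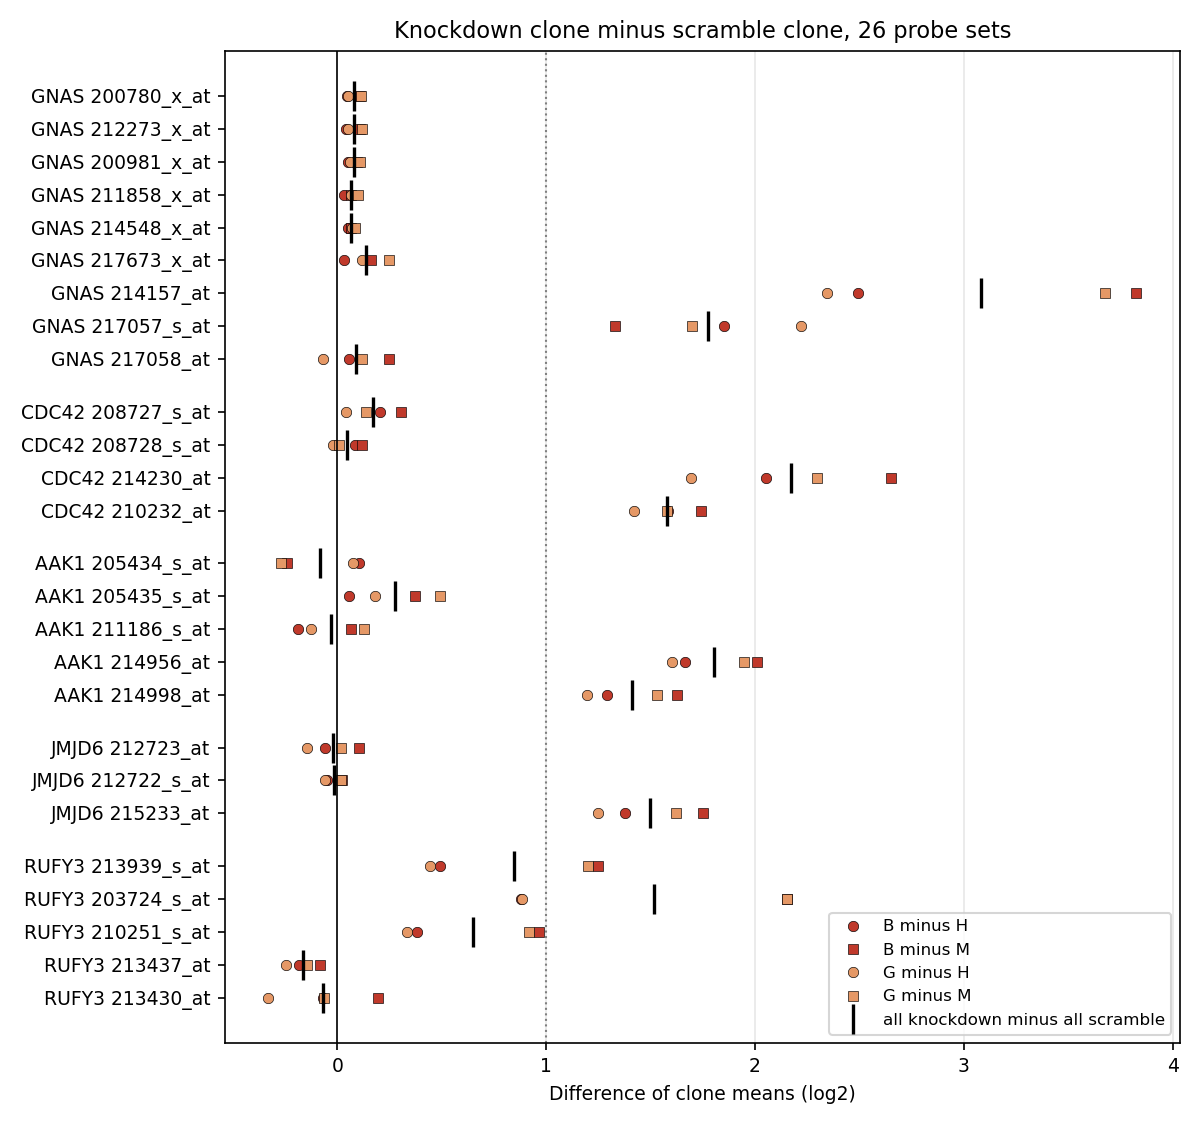
Difference of each knockdown clone (B and G) from each scramble clone (H and M), on the log2 scale, for the 26 probe sets grouped by gene. A bar marks all knockdown minus all scramble arrays. At GNAS 214157_at clone B lies above H by 2.50 and above M by 3.83, and clone G by 2.34 and 3.67. At CDC42 214230_at these values are 2.05 and 2.65 for B and 1.69 and 2.30 for G. The bars of the GNAS probe sets spread from 0.07 to 3.09.

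The disagreement inside a gene can be stated as the range of knockdown minus scramble over its probe sets. This range was 3.02 for GNAS, 2.13 for CDC42, 1.89 for AAK1, 1.68 for RUFY3 and 1.52 for JMJD6. Ranked among the 4310 genes with several probe sets they stood at places 1, 4, 6, 12 and 15, where the median range was 0.14 and 50 genes (1.16%) had a range of 1 or more. A range can only grow as probe sets are added, and these 5 genes have 3 to 9. Places by range, here and below, are read with that limit. The disagreement can also be stated as the log2 ratio of each probe set to the brightest of its gene, which cancels what both share on an array. Of the 21 such ratios 7 were higher in knockdown by at least 1 (0.549% of all 7101 ratios) and 1 was lower by that much (0.253%). The ratio was higher by 3.01 and 1.70 for GNAS 214157_at and 217057_s_at, by 2.001 and 1.41 for the CDC42 probe sets 214230_at and 210232_at, by 1.89 and 1.49 for AAK1 214956_at and 214998_at, and by 1.52 for JMJD6 215233_at. For RUFY3, measured against its own higher probe set, 213437_at was lower by 1.01 and 203724_s_at was higher by 0.67. These ratios also come from the comparison that chose the genes. The reference of GNAS lies near the top of the signal scale, where changes can be compressed, which limits every ratio of GNAS.

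Clones H and M, both scramble controls, were compared with each other next. The choice of genes rested on knockdown minus scramble, but the call it required also depends on the spread within each condition, so it favours probe sets with small differences between clones of a condition and between replicates. Counts in those comparisons are read with that limit. RUFY3 203724_s_at was higher in clone H than in clone M by 1.27 (SE 0.17, limma adjusted p = 0.020). It was the only one of the 26 called, and 1.05% of all probe sets were called (234 of 22215). The call was lost without H1 (adjusted p = 0.15), H2 (0.16), M1 (0.077) or M2 (0.062), and among brighter probe sets only (0.055), over a range of adjusted p from 0.0013 to 0.16 for all alternatives. GNAS 214157_at was higher in H by 1.33 (SE 0.25, limma adjusted p = 0.063), RUFY3 213939_s_at by 0.75 (0.11) and RUFY3 210251_s_at by 0.58 (0.067). With the replicate number as a block these 3 were called as well (limma adjusted p = 3.43e-04, 0.0032 and 0.0072), but then 1538 probe sets were called in all.

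At an unadjusted p under 0.05 the comparison of H and M held 6 of the 26, against 13.2% of all probe sets. Of the 8 probe sets higher in knockdown by 1 or more, 7 were higher in H than in M, and the exception was GNAS 217057_s_at at -0.52. This was no trait of those 8, since 15 of the 16 probe sets with overlapping conditions were also higher in H, with differences of -0.34 to 0.32. Over the whole array 51.3% of probe sets were higher in H. Expressed as the place of clone H on the way from M to the knockdown mean, H stood at 59.1% for RUFY3 203724_s_at, 61.6% for 213939_s_at and 62.0% for 210251_s_at. It stood at 35.5% for GNAS 214157_at, at 24.3% and 9.48% for CDC42 214230_at and 210232_at, at 17.4% and 21.3% for AAK1 214956_at and 214998_at and at 22.0% for JMJD6 215233_at. For GNAS 217057_s_at H lay below M, at -34.5%. Knockdown minus H and knockdown minus M share the 4 knockdown arrays.

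The disagreement itself was also tested between H and M, as the ratio to the brightest probe set of the gene. For GNAS 214157_at this ratio was higher in H by 1.27 (limma adjusted p = 0.18, and 0.015 with the replicate number as a block). By limma none of the 21 ratios was called, and with the block 1 was called. An unadjusted p under 0.05 was reached by 8, against 14.3% of all ratios. Every AAK1 ratio was among these 8 (205435_s_at 0.66, 211186_s_at 0.60, 214956_at 0.69 and 214998_at 0.68). They share the reference 205434_s_at, itself lower in H by 0.34, so they are not separate instances. Over all ratios 0.296% were called (21 of 7101). GNAS had a range of H minus M over its probe sets of 1.85, at place 12 of the 4310 genes, and RUFY3 one of 1.17, at place 41. The other 3 genes ranged over 0.30 to 0.69, where 1.46% of genes reached 1.

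Few probe sets of the whole array were called between the knockdown clones B and G. With 2 arrays per clone, the absence of a call does not show equal values. The range of B minus G over probe sets was 0.52 for GNAS, at place 59 of the 4310 genes. It was 0.12 to 0.26 for the other genes, against a median of 0.11 over all. None of the 26 probe sets was called by limma between B and G and none had an unadjusted p under 0.05, against 0.0045% (1 probe set) called and 0.936% at that unadjusted p among all. The differences ran from -0.37 for GNAS 217057_s_at to 0.36 for CDC42 214230_at. limma called none of the 21 ratios either, none had an unadjusted p under 0.05, and none of all 7101 was called (109, or 1.53%, at that unadjusted p). For the probe set with the highest difference in each of the 5 genes, clone means ran from M through H to the knockdown clones. In that order B and G were not called in any of the 5. H and M were called for RUFY3, and unadjusted p values for GNAS 214157_at and CDC42 214230_at were 8.3e-04 and 0.020 (limma adjusted p = 0.063 and 0.27).

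**Figure D3:**
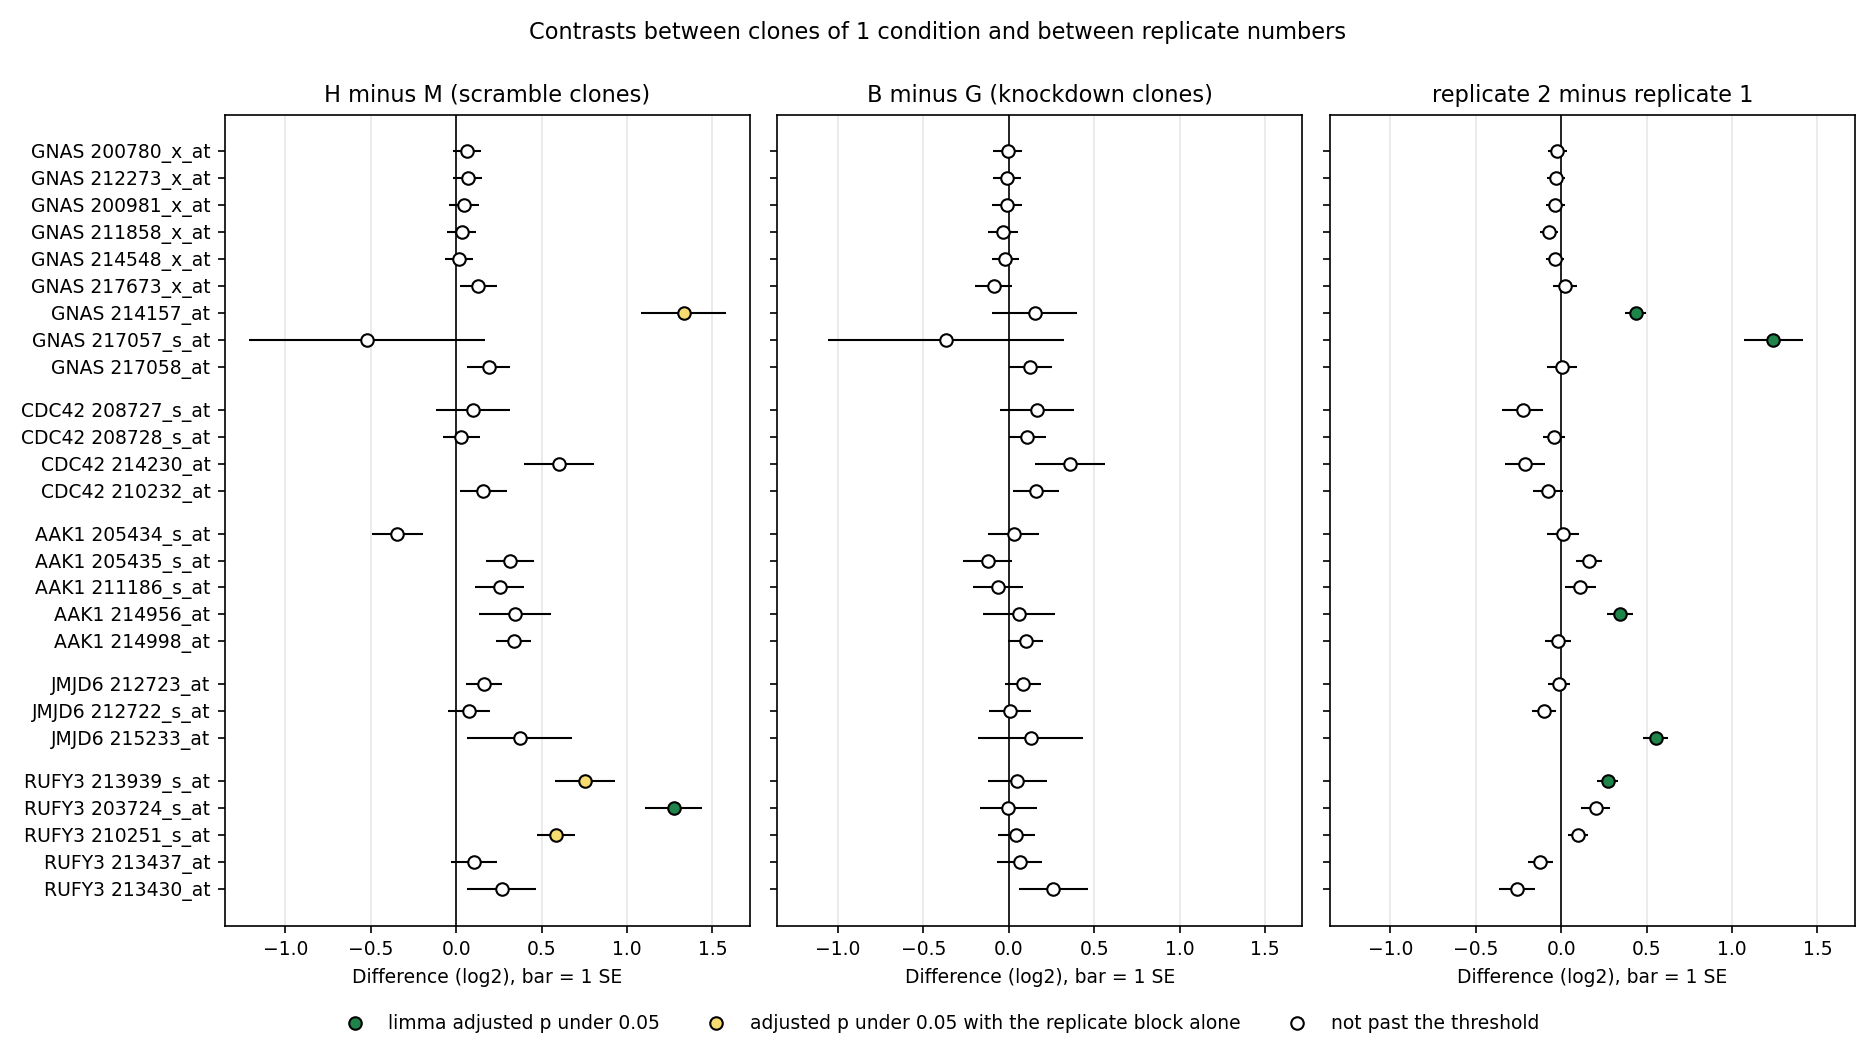
The 26 probe sets in the comparisons within conditions, scramble clone H minus M, knockdown clone B minus G, and replicate 2 minus replicate 1, on the log2 scale with the standard error of the limma fit. Called probe sets are marked: 1 for H minus M, RUFY3 203724_s_at at 1.27, none for B minus G, and 5 for the replicates; a separate fill shows those called with the replicate block alone.

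The replicate numbers carried a shift of their own, since arrays with the same number moved together across clones. Of the 26 probe sets 5 were called for replicate 2 minus replicate 1, all higher in replicate 2, against 13.4% of all probe sets called, 4.6% higher (1021) and 8.76% lower (1945). After quantile normalization that split was 1279 higher and 1580 lower. GNAS 217057_s_at was higher in replicate 2 by 1.24 (SE 0.17, limma adjusted p = 0.0055), in clones B, G, H and M by 1.47, 0.65, 1.87 and 0.98. GNAS 214157_at was higher by 0.44 (SE 0.06, limma adjusted p = 0.0055) and JMJD6 215233_at by 0.55 (SE 0.07, limma adjusted p = 0.0045), each in 4 of 4 clones. These 3 calls were kept in all 11 alternatives run, with adjusted p up to 0.041.

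AAK1 214956_at was higher in replicate 2 by 0.35 (SE 0.08, limma adjusted p = 0.024) and RUFY3 213939_s_at by 0.27 (SE 0.06, limma adjusted p = 0.026), also in 4 of 4 clones. The AAK1 call was lost without any single array of clones B, G or H (adjusted p 0.056 to 0.11), and the RUFY3 call without any single array of clones B or G (up to 0.14) and without the trend of the spread (0.051). Of the 5 called, 4 were probe sets that differed by 1 or more between conditions. At an unadjusted p under 0.05 there were 7 of the 26, against 31.3% of all probe sets. What the number marks in the work is not stated in the sources used here.

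As a ratio to the brightest probe set of the gene, GNAS 217057_s_at was higher in replicate 2 by 1.26 (limma adjusted p = 0.040) and JMJD6 215233_at by 0.57 (limma adjusted p = 0.030). The ratio of GNAS 214157_at was higher by 0.46 (limma adjusted p = 0.077). Of all ratios 2% were called (142 of 7101), 1.48% higher (105 against 37 lower, or 58 against 44 after quantile normalization). The call of 217057_s_at was lost without any single array of B, G or H, and that of 215233_at without any single array, with adjusted p up to 0.21 and 0.18. Both probe sets were among those higher in knockdown, and here they moved between replicates against the brightest of their gene.

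Features that the choice did not use were then compared. Of the 5 probe sets with the highest difference in each gene, 4 ended in _at, 1 in _s_at and none in _x_at, while of the brightest 1 ended in _at, 3 in _s_at and 1 in _x_at. Over the whole array 53.0% of probe sets ended in _at, 35.9% in _s_at and 10.9% in _x_at, and the share higher by 1 or more was 0.391%, 0.527% and 0.206% of these. A pattern of _at against _s_at held for CDC42 and AAK1 and was turned round in RUFY3, where the _s_at probe sets were higher and the _at were not. In JMJD6 the brightest and the highest both ended in _at.

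The highest probe sets of GNAS, CDC42 and JMJD6 (214157_at, 214230_at and 215233_at) are listed with expressed sequence tags, which are single-pass reads of cDNA clones. Of the 8 probe sets higher by 1 or more 3 were of this kind, of all 26 there were 6 (23.1%), and of all probe sets with 1 gene 12.6%. Among all probe sets of 1 gene that were higher by at least 1, 11 of 75 (14.7%) were of this kind. The expressed sequence tags of RUFY3 went both ways, with 0.85 for 213939_s_at, -0.16 for 213437_at and -0.07 for 213430_at. A shared record did not bring equal values for GNAS, where 217057_s_at and 217058_at differed by 1.78 and 0.09 between the conditions. Whether the dim 217058_at was above background was not analysed here, which limits that comparison.

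By level, which the choice did use by requiring a second probe set at or above the median of the array, 18 of the 26 probe sets reached that median, and so did 4 of the 8 that were higher by 1 or more and 12 of the 16 that overlapped. Means of the 8 ran from 5.83 for AAK1 214998_at to 10.68 for RUFY3 203724_s_at. Levels of different probe sets are not set against each other as amounts of RNA, because each binds with its own strength. Whether the probe sets below the median were above background on each array was not analysed here.

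Genes beside the 5 in RefSeq order, 2 on each side, were read where a probe set named them alone. None of the genes beside GNAS had such a probe set, so its neighbourhood was not read. For CDC42, AAK1, JMJD6 and RUFY3 only the neighbours named here were measured. Near CDC42, LINC00339 differed by 0.12 (limma adjusted p = 0.53) and WNT4 by 0.07 (0.72). Near AAK1, NFU1 differed by 0.19 (limma adjusted p = 0.59), and near JMJD6, MXRA7 by 0.15 (0.12). Near RUFY3, GRSF1, an RNA-binding protein, had 4 probe sets, of which 215030_at was higher by 0.45 (SE 0.10, limma adjusted p = 0.048) and the others differed by 0.16, -0.04 and -0.07 and were not called.

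The probe sets of other genes with the most similar course over the 8 arrays were found by the root mean square distance after centring each on its own mean. For GNAS 214157_at, whose own spread by this measure was 1.63, they were GRM8 216255_s_at (0.41), CDC42 214230_at (0.63) and GRM8 216992_s_at (0.65). The brightest GNAS probe set lay at 1.59 and 217057_s_at at 1.05, and distances to the other probe sets of a gene are large by the choice, which required a probe set without the difference. GRM8 encodes a metabotropic glutamate receptor. For CDC42 214230_at (own spread 1.13) they were GRM8 216992_s_at (0.23), ANO3 (0.26) and GRM8 216255_s_at (0.38), against 0.39 for the other _at probe set of CDC42 and 1.02 for its brightest.

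For AAK1 214956_at (own spread 0.93) the nearest were JUN 201466_s_at (0.14), JMJD6 215233_at (0.19) and PTBP2 (0.24). For JMJD6 215233_at (own spread 0.81) they were JUN 201466_s_at (0.13), AAK1 214956_at (0.19) and JUN 201464_x_at (0.26). JUN encodes a subunit of the AP-1 transcription factor and PTBP2 a neuronal splicing regulator. For RUFY3 203724_s_at (own spread 0.89) they were GRIA2 (0.24), ABCA12 (0.26) and DGKI (0.27), with its own brightest probe set at 0.39. GRIA2 encodes a subunit of AMPA-type glutamate receptors and DGKI a diacylglycerol kinase. These are distances over 8 arrays that share the 4 clones, and they describe likeness only. The genes were chosen for a step between conditions, so probe sets with a similar step lie near by the choice, members of the 5 genes among them.

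**Figure D4:**
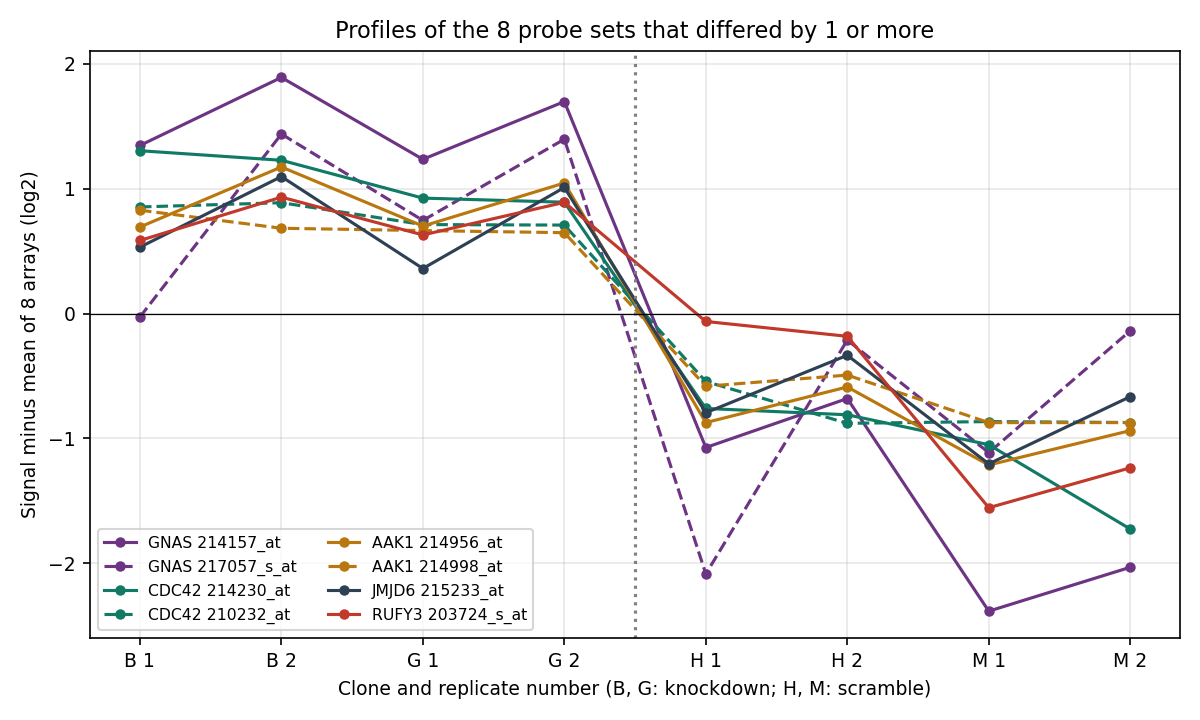
Signal of the 8 probe sets higher by 1 or more on each of the 8 arrays, centred on the mean of each (log2) and coloured by gene. A solid line is the probe set with the highest knockdown minus scramble of its gene and a dashed line is another of the same gene; the solid lines lie higher on the knockdown arrays than on the scramble arrays, by 3.09 for GNAS 214157_at and 1.50 for JMJD6 215233_at.

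The partners of GNAS, AAK1, JMJD6 and RUFY3 were read from lists by the brightest probe set of each gene, for knockdown minus scramble. Over all probe sets 2.96% were called (1.53% higher and 1.43% lower). Over all 11963 genes 3.14% were called, 1.54% higher and 1.6% lower, 21% had an unadjusted p under 0.05, and the median difference was 0.0013 with 50.2% of genes above 0. Of 24 measured heterotrimeric G protein subunits 1 rose and 1 fell, with a median of 0.07. Of these 24, 10 had an unadjusted p under 0.05 and 62.5% were above 0. GNAO1 was read by its brightest probe set (0.54, limma adjusted p = 0.15). Another GNAO1 probe set was called and was higher by 1.14. GNG3, a gamma subunit of neurons, rose by 0.79 (SE 0.13, limma adjusted p = 0.018), from 8.38 to 9.17. GNG12, a widely expressed gamma subunit, fell by 1.23 (SE 0.21, limma adjusted p = 0.021), from 10.81 to 9.59. Of 29 measured genes that make, break down or answer cAMP, the messenger below GNAS, limma called none, 11 had an unadjusted p under 0.05, and the median was 0.03. Of these 29, 51.7% were above 0.

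Of 31 measured genes of AAK1-related kinases, clathrin and its adaptors limma called none, 5 had an unadjusted p under 0.05, and the median was 0.03. Of these 31, 58.1% were above 0.

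Of 32 measured JmjC-domain enzymes and JMJD6 partners 1 fell and none rose, with a median of 0.02. Of these 32, 7 had an unadjusted p under 0.05 and 56.25% were above 0. The gene that fell was KDM2A, a histone demethylase, by 0.49 (SE 0.09, limma adjusted p = 0.022). Of 41 measured RUN-domain, lysosome positioning and neuronal polarity genes 2 rose and none fell, with a median of 0.08. Of these 41, 12 had an unadjusted p under 0.05 and 68.3% were above 0. RAB33A, a Golgi-linked Rab GTPase, rose by 0.58 (limma adjusted p = 0.036). RUNDC3A, a RUN-domain protein of neurons, rose by 0.997 (SE 0.22, limma adjusted p = 0.048). RUNDC3A was higher in clone H than in M by 0.87 (limma adjusted p = 0.053), the side on which RUFY3 203724_s_at lay.

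With the replicate number as a block 3 more listed genes were called, GNG11 (-1.34, limma adjusted p = 0.045 against 0.12), PRKAR2B (0.50, 0.039 against 0.090) and PDE4B (-0.94, 0.045 against 0.14). The 5 calls named from the lists (GNG3, GNG12, KDM2A, RAB33A and RUNDC3A) rested on few arrays: none was kept without B2, 1 without B1, 1 without G1, 1 without G2, 3 without M1, 3 without M2 and all 5 without H1 or H2. Over all alternatives their highest limma adjusted p ran from 0.25 for KDM2A to 0.45 for RUNDC3A. None was kept when the arrays of a clone were averaged first, where 1 probe set was called in all.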

How the data were processed

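The deposited table holds 1 log2 signal per probe set and array, made by the authors with GCOS and RMA, per the submitters' processing notes, which give no versions; the log2 scale was read from the values. Of 22277 probe sets, 62 controls were left out, and 19064 of the rest name 1 gene, 1043 several and 2108 none in the platform annotation. No further normalization was applied. limma 3.58.1 in R 4.3.3 (lmFit, eBayes with trend) was fitted over all probe sets with Benjamini-Hochberg adjustment, called at an adjusted p under 0.05, two-sided. Knockdown minus scramble took clone as a random block (statmod 1.5.0). The within-clone correlation of this fit was -0.07, so the block added no spread between clones. Its SEs and p-values thus treat the arrays of a clone about as separate samples. With the replicate number as a block the correlation was 0.24. H minus M and B minus G used clone means, with the spread between duplicates. Ratios to the brightest probe set were fitted likewise. Same-numbered arrays deviated together (correlations 0.42 to 0.78 over the 6 pairs of clones), so the numbers were taken as pairs and the blocked fit is given where it changes a call. Fits were tested on simulated data. Every probe set of the 5 genes is named. Of each list the up to 3 called genes with the smallest p are named. The measured genes among the nearest 2 RefSeq genes on each side and the 3 most similar profiles are named as well. Genes named beyond this (GNG11, PRKAR2B, PDE4B) were chosen after their values were seen. 1 list is not reported here. The members and lists were chosen with earlier results of these data known. Precision is limited by the number of arrays.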

Additional observations from a re-analysis of the deposited data

Results flagged for a closer look

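Of 52 groups of 4 arrays (26 probe sets in each condition) 2 held an array far from the other 3, and chance alone gives about 1 in 20. GNAS 217673_x_at was 13.45 on array G1, against 13.29 to 13.31 on the other knockdown arrays. CDC42 210232_at was 7.31 on array H1, against 6.98 to 6.99 on the other scramble arrays. Neither array stood apart in this way at another of the 26 probe sets.

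The knockdown difference of RUFY3 203724_s_at depended on the scramble clone, because H was above M by 1.27 (limma adjusted p = 0.020). It was 0.88 against clone H and 2.16 against clone M.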

How the results depend on the processing

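Knockdown minus scramble of the 26 probe sets was taken in 15 alternatives each, which gave 390 values. All moved by less than the larger of the SDs of the conditions (n = 4 each). Leaving out an array or a clone cannot move a value past that SD, which comes from the same arrays. Only quantile normalization and the comparisons within a replicate could have done so. RUFY3 203724_s_at stayed within that SD while running from 0.88 to 2.16. The sign turned in 25 of the 390 values. All were in 8 probe sets with a difference of at most 0.17 in size, and the turned values ran from -0.05 to 0.12. No called result reversed. Counts of called probe sets moved more. For knockdown minus scramble 657 were called, 340 higher and 317 lower (292 and 359 after quantile normalization). The count was 1 with clone means, 13 without clone B, 22 without G, 8685 without H, 2117 without M, 18 within replicate 1 and 1 within replicate 2. Leaving out an array gave 225 (B1), 69 (B2), 212 (G1), 207 (G2), 1544 (H1) or 3751 (H2). For H minus M (234) it was 30 among brighter probe sets, 1538 with the replicate block, 29 without H1, 13 without H2, 62 without M2, 120 without G1 or G2 and at most 206 without any other array. For B minus G (1) it was 0 among brighter probe sets, 2 with the block and 0 to 1 leaving out an array (0 without any array of B, G or M). For the replicates (2966) leaving out an array gave 765 to 3636, among them 773 (B1), 765 (B2), 985 (G1), 984 (G2), 1924 (H1) and 1925 (H2). Called ratios for H minus M (21) were 9 without trend, 0 among brighter probe sets, 55 with the block, and 3 (H1), 4 (H2), 6 (G1, G2), 8 (M2), 9 (B1, B2) or 17 (M1) leaving out an array. Called ratios for the replicates (142) were 69 among brighter probe sets and 0 (B1, B2), 6 (G1, G2), 18 (H1, H2) or up to 108 leaving out an array. The cause was not tested. Members called numbered 0 to 4 for H minus M, 3 to 8 for the replicates and 0 for B minus G in every alternative. The replicate block changed no other call among the 26 probe sets and their ratios. Alternatives for the number of members called, and the kind of database record, were chosen after seeing the data. With 2 clones per condition and 2 arrays per clone, both numbers limit the comparisons.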
